A study of Mus musculus with 3 samples.

Results

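Macrophage nuclei that carried transcripts of Clec10a, Folr2, Ccl6, C4b or Pltp were taken from single-nucleus RNA sequencing of mouse hearts. A nucleus was a member if it held at least 2 UMIs (unique molecular identifiers, each standing for 1 captured RNA molecule) over the 6 macrophage genes Csf1r, Mrc1, Adgre1, F13a1, Mertk and Dock2 and at least 2 over Clec10a, Folr2, Ccl6, C4b and Pltp. It also had to hold 0 UMIs over the barred genes Cd163, Lyve1, Ccr2, Trem2 and Gpnmb, at most 1 over the endothelial and fibroblast genes Pecam1, Cdh5, Pdgfra and Dcn, and under 3% of its UMIs in the cardiomyocyte genes Ttn, Ryr2, Myh6 and Mhrt. Of 20733 kept nuclei (300 or more genes detected, mitochondrial UMIs no more than 10%), 222 were members: 37 in MI-DAPA, 122 in MI-NS and 63 in Sham-NS. They were part of 1847 gated macrophage nuclei, which met all the criteria except those on the 5 member genes and the 5 barred genes. The members were thus chosen by UMI counts of these genes in the same nuclei, so the levels of those genes describe the selection and are not results.

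Macrophages of the heart include a long-lived resident population, which clears debris and apoptotic cells, and cells that derive from blood monocytes and enter after injury. Clec10a is a C-type lectin that binds galactose-type sugars and is common on alternatively activated macrophages, and Folr2, folate receptor beta, is typical of tissue-resident ones. Ccl6 is a CC chemokine, C4b is a component of the classical complement pathway, and Pltp transfers phospholipids between lipoproteins. Among the barred genes, Cd163 takes up haptoglobin-bound haemoglobin and Lyve1 binds hyaluronan, both on resident macrophages. Ccr2 is the chemokine receptor of monocyte-derived cells, and Trem2 and Gpnmb are typical of lipid-handling, phagocytic ones.

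The hearts were taken 2 weeks after surgery. MI-DAPA hearts had a myocardial infarction and dapagliflozin, a drug that blocks SGLT2, the renal sodium-glucose transporter encoded by Slc5a2; MI-NS hearts had an infarction and NS, which the labels do not expand; Sham-NS hearts had sham surgery and NS. The study asked how dapagliflozin acts on macrophages after infarction, and whether this needs SGLT2. Strain, sex, age, dose, heart region and the number of animals behind a library are not given in the sources used here. Each group is 1 library, so differences between groups have no replicate check, and intervals in brackets (95%) cover counting error only.

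The libraries held 8871086 UMIs in 6354 barcodes for MI-DAPA, 10113430 in 7725 for MI-NS and 13873275 in 9744 for Sham-NS. Member nuclei held 25948, 114397 and 64008 UMIs in MI-DAPA, MI-NS and Sham-NS, with median depths of 648, 766 and 873 UMIs per nucleus. In the 1625 other gated nuclei the medians were 654, 738 and 711 UMIs. The median mitochondrial share of member nuclei was 3.05% in MI-DAPA, 1.46% in MI-NS and 3.66% in Sham-NS, and the nuclear transcript Malat1 took 6.02%, 8.91% and 4.54% of their UMIs, so the MI-NS nuclei stood apart in both. The libraries shared 13 to 20 barcodes per pair, and no member's barcode was also a member in another library. Slc5a2 and its relative Slc5a1 had 0 UMIs in member nuclei, which at the floor of 3 counts allows up to 115.6 CPM (UMIs of a gene scaled to a common total over the same nuclei) in MI-DAPA, 26.2 CPM in MI-NS and 46.9 CPM in Sham-NS.

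C4b and Clec10a brought most members in. C4b (chr17:34728380-34743882, minus strand, mm10) was detected in 136 of the 222 nuclei, Clec10a (chr11:70156197-70170834, plus strand) in 128, Folr2 (chr7:101839988-101857194, minus strand) in 68, Pltp in 58 and Ccl6 in 53. The label's pair of genes was the minority case: 36 nuclei held both Clec10a and Folr2, 70 held both Clec10a and C4b, and 28 held neither Clec10a nor C4b. Clec10a was detected in 54.1% of member nuclei in MI-DAPA, 68.9% in MI-NS and 38.1% in Sham-NS. C4b was found in 62.2%, 70.5% and 42.9% of them, whereas Folr2 was found in 18.9%, 31.1% and 36.5%, in the same order of libraries. Sham-NS members were thus held together less by Clec10a and C4b and more by Folr2, Ccl6 and Pltp, and 20 of the 28 nuclei without Clec10a and C4b were in Sham-NS. C4b has a neighbouring near-copy, C4a, and Clec10a has one, Mgl2, so the counting could split reads between copies.

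**Figure D1:**
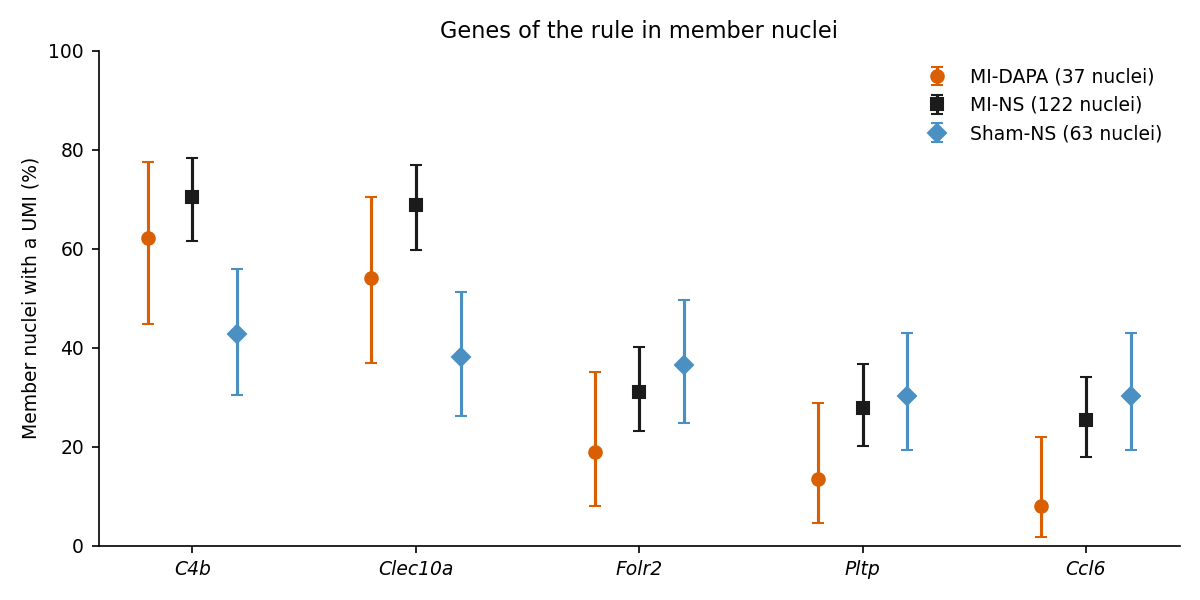
Percent of member nuclei with at least 1 UMI of each member gene, by library, with 95% exact binomial intervals; these genes chose the nuclei. Clec10a and C4b reach 68.9% and 70.5% in MI-NS and 38.1% and 42.9% in Sham-NS, and Folr2 lies between 18.9% and 36.5%.

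Most members outside MI-NS sat at the edge of the rule. Exactly 2 UMIs of the member genes were held by 25 of 37 nuclei in MI-DAPA, 34 of 122 in MI-NS and 39 of 63 in Sham-NS, and 4 or more by 7, 75 and 13. Just outside, 168 gated nuclei without a barred gene held exactly 1 such UMI (46 in MI-DAPA, 57 in MI-NS and 65 in Sham-NS). Their median depth was 688 UMIs, and that of the 98 members with exactly 2 was 721.5. Another 107 nuclei held 2 or more member-gene UMIs but 1 UMI of a barred gene. The bar on those genes took 38.1%, 45.9% and 60% of the nuclei that had passed the member threshold in MI-DAPA, MI-NS and Sham-NS.

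Genes of the gate were required as a set by the rule, so their detection describes the selection and does not check the macrophage label. F13a1, a coagulation factor subunit made by macrophages, was detected in 166 members, Mrc1, the mannose receptor, in 164, and Csf1r, the receptor for the macrophage growth factor CSF-1, in 114. The remaining gate genes Mertk, Dock2 and Adgre1 were detected in 60, 45 and 16 members. Clec10a was rare outside macrophage nuclei: it was found in at most 1.08% of cardiomyocyte-, fibroblast- or endothelial-gated nuclei in any library, a share read as background, although the cardiomyocyte nuclei were deeper (medians 2059 to 2325 UMIs). C4b was not. Fibroblast-gated nuclei with median depths of 856, 1017 and 781 UMIs held it in 5.98% of cases in MI-DAPA, 25.1% in MI-NS and 3.8% in Sham-NS. Members with C4b had a higher fibroblast list sum than members without it: 2094 against 1370 CPM in MI-DAPA, 2622 against 1727 CPM in MI-NS and 2841 against 959 CPM in Sham-NS. The part of fibroblast RNA in the choice of C4b members was not tested, and shares without C4b and Pltp in the rule are given below.

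Markers of other leukocytes were sparse. The T and NK cell list, 14 genes, had 0, 1 and 2 UMIs in MI-DAPA, MI-NS and Sham-NS members. The monocyte list, also 14 genes, had 1, 10 and 7 UMIs. The neutrophil list, 10 genes, had sums of 192.7, 262.2 and 187.5 CPM in members, against 197.9, 239.1 and 122.8 CPM in the other gated nuclei. The B cell list, also 10 genes, had sums of 269.8, 183.6 and 187.5 CPM, against 347.3, 403.7 and 302.3 CPM. In the dendritic cell list, 5, 6 and 9 of 17 genes were detected, with sums of 578, 227 and 453 CPM, against 355, 347 and 310 CPM in the other gated nuclei; Flt3 and Xcr1 had 0 UMIs. The mast cell list had 1, 5 and 24 UMIs, and in Sham-NS the mast cell proteases Mcpt4 and Tpsb2 (8 and 6 UMIs) each came from 1 nucleus. Endothelial sums were 1195, 1250 and 1765 CPM and cardiomyocyte sums, without the capped genes, 2698, 2273 and 2906 CPM.

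Member nuclei made up a larger share of MI-NS than of the other libraries. They were 0.689% of kept nuclei in MI-DAPA (0.485 to 0.948), 1.73% in MI-NS (1.44 to 2.06) and 0.759% in Sham-NS (0.584 to 0.971). Among gated macrophage nuclei the shares were 10.05% in MI-DAPA, 19.4% in MI-NS and 7.42% in Sham-NS. The MI-NS share of kept nuclei was 2.27-fold that of Sham-NS (1.66 to 3.13), and the MI-DAPA share was 0.399-fold that of MI-NS (0.268 to 0.58). MI-DAPA against Sham-NS gave 0.907-fold (0.587 to 1.38), an interval that spans 1. No test between groups is possible with 1 library each.

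The size of the infarct difference depended on depth and on the choice of genes. Where nuclei were thinned to 1000 UMIs, which leaves out 3220, 4235 and 5278 shallower kept nuclei in MI-DAPA, MI-NS and Sham-NS, members were 4 of 2152, 27 of 2830 and 22 of 3018. MI-NS was then only 1.31-fold Sham-NS, with an interval from 0.718 to 2.41, and MI-DAPA was 0.195-fold MI-NS (0.0495 to 0.559). MI-DAPA was 0.255-fold Sham-NS (0.0639 to 0.751), so on 4 thinned MI-DAPA members the interval lay below 1, which it did not under the rule as given. Requiring at least 2 UMIs over Clec10a and Folr2 alone left 15, 65 and 25 nuclei, or 0.279%, 0.92% and 0.301% of kept nuclei in MI-DAPA, MI-NS and Sham-NS. Dropping C4b and Pltp from the rule left 16, 79 and 33 members. In each of these alternatives MI-NS had the highest share.

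**Figure D2:**
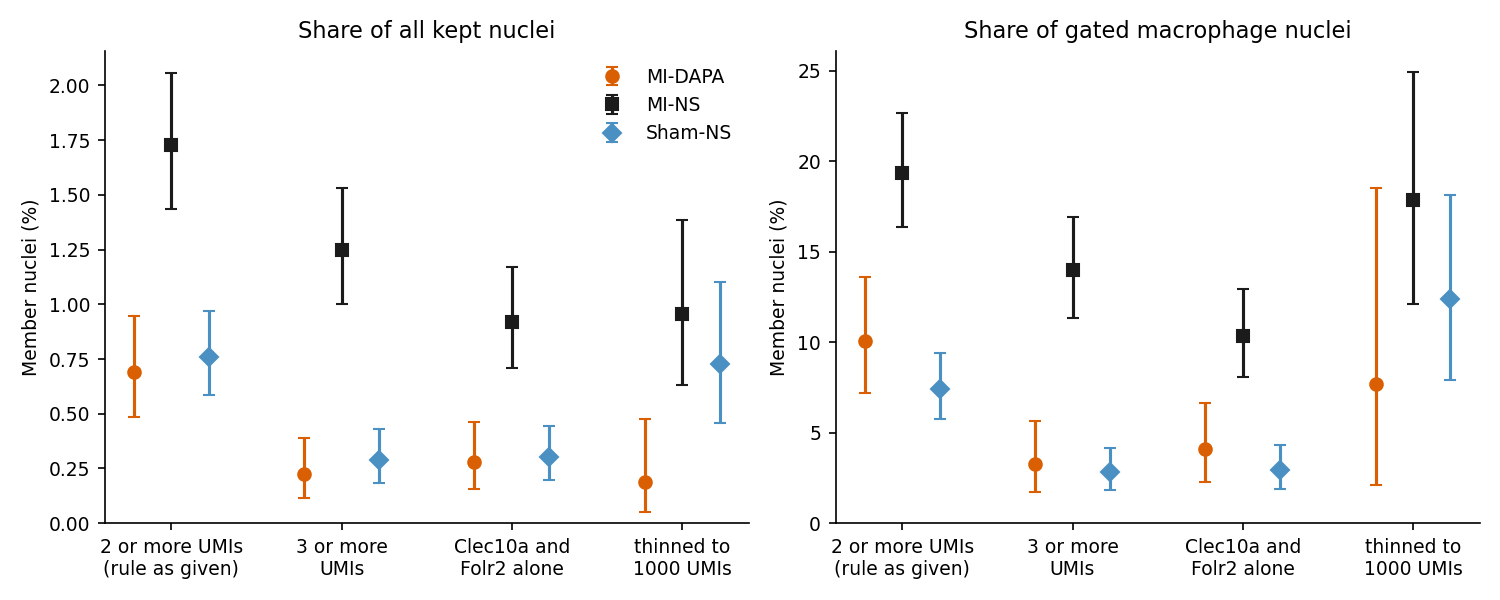
Member nuclei as a percent of kept nuclei (left) and of gated macrophage nuclei (right) in each library, under the rule as given and 3 alternatives, with 95% exact binomial intervals. MI-NS is highest throughout, at 1.73% and 19.4% under the rule as given, against 0.689% and 10.05% in MI-DAPA and 0.759% and 7.42% in Sham-NS.

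Set against the other gated macrophage nuclei, member nuclei differed in hardly any gene outside the rule. UMIs were summed per library and compared within libraries by edgeR's quasi-likelihood test with the library as a block, so the 3 libraries served as replicates. Of 4033 genes tested, 1 passed an adjusted p of 0.05, a called share of 0.0248%, and 207 (5.13%) had an unadjusted p under 0.05. The gene was Dnm1 (chr2:32308471-32353338, minus strand, mm10), which encodes dynamin 1, a GTPase that pinches off endocytic vesicles and is best known from nerve terminals. Its level was 424, 393 and 500 CPM in member nuclei of MI-DAPA, MI-NS and Sham-NS, against 190, 147 and 230 CPM in the other gated nuclei. Dnm1 was thus higher in members in 3 of 3 libraries, at log2 fold change 1.25 ± 0.22 (SE) and adjusted p = 0.0464 by edgeR. It was not confined to macrophage nuclei: nuclei without a UMI of the 6 macrophage genes had 161.5, 247.3 and 176.8 CPM in MI-DAPA, MI-NS and Sham-NS. The part of RNA from other cells was not tested. The call was lost without MI-NS (adjusted p = 0.985) and without Sham-NS (0.0736), and DESeq2 called 0 genes with 37 at an unadjusted p under 0.05. Cd72, a receptor of B cells and myeloid cells, stood next, lower in members at log2 -1.66, and then Gas6, the ligand through which macrophages bind phosphatidylserine on dying cells, at log2 0.77 (adjusted p = 0.059 for both, edgeR). None of the 20 gene lists had a called member in this comparison; the median log2 fold change was 0.20 for the resident macrophage list and -0.37 for class II antigen presentation, against -0.01 over all genes.

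The nearest macrophage nuclei were those with Cd163 or Lyve1, 649 in all, and no gene passed the test against them. Of 2073 genes tested by edgeR, 0 passed (0% called), and 84 had an unadjusted p under 0.05. Summed levels of the resident macrophage list, 29 genes that include Gas6, Maf and Stab1, were 10520, 11250 and 8811 CPM in members of MI-DAPA, MI-NS and Sham-NS. In Cd163 or Lyve1 nuclei they were 9873, 12090 and 10300 CPM. Sums of the class II antigen presentation list were as close, at 809, 1591 and 1000 CPM in members and 842, 1523 and 1017 CPM in Cd163 or Lyve1 nuclei. Against the 113 nuclei with Trem2 or Gpnmb and without Cd163, Lyve1 and Ccr2, 2 of 729 genes passed (0.274%), both lower in members. They were Lilrb4a, an inhibitory immunoglobulin-like receptor, and Tgfbr1, a TGF-beta receptor. These comparisons, and the next one, were added after the data had been seen.

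The comparison with most calls was that against the 109 nuclei with Ccr2 and without Cd163 and Lyve1 (17 in MI-DAPA, 65 in MI-NS and 27 in Sham-NS). They are called Ccr2 nuclei here. Gated nuclei with Ccr2 that also held Cd163 or Lyve1 were counted with the Cd163 or Lyve1 nuclei. Of 672 genes tested by edgeR, 32 passed (4.76%), 19 higher in members (2.83%) and 13 lower (1.93%), and all 32 had the same sign in 3 of 3 libraries. In the class II antigen presentation list, all 5 tested genes were called lower. The resident macrophage list had 10 tested genes, all with a positive log2 fold change and 3 called, against 332 of 672 positive among all tested genes. The calls rest on few UMIs, and they also depended on the libraries and the tool used. None of 24 named genes stayed called without MI-DAPA, none without Sham-NS and 7 of the 15 still tested without MI-NS. DESeq2 called 4 genes, and the cause of these losses was not tested. No sign turned in any alternative.

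The genes lower in members include those of antigen presentation to T cells. H2-Ab1, a chain of the class II molecule, had 193, 140 and 93.7 CPM in members of MI-DAPA, MI-NS and Sham-NS, against 539, 937 and 1056 CPM in Ccr2 nuclei. Its log2 fold change was -2.66 ± 0.33 (SE), with adjusted p = 8.3e-05 by edgeR. Cd74, the invariant chain that guides class II molecules to peptide-loading compartments, had 270, 708 and 406 CPM in members against 1079, 2072 and 1056 CPM in Ccr2 nuclei (log2 -1.44 ± 0.23, adjusted p = 0.00093). Overlap was not counted over all tested genes, so the gap between groups for these called genes adds nothing to the test. Ciita, the master transactivator of class II genes, had 0, 69.9 and 15.6 CPM in members against 449, 396 and 465 CPM in Ccr2 nuclei (adjusted p = 0.0047). H2-Aa and H2-Eb1, the other class II chains, had log2 fold changes of -1.81 and -1.94. Beyond class II, Cd72 stood at log2 -2.29 ± 0.32, Tgfbr1 at -2.06, and Skil, a repressor of SMAD signalling, at -1.51. Dock10, a guanine exchange factor, Ptprc, the pan-leukocyte phosphatase CD45, Fyb, an adaptor of immune receptors, and Samd9l, an interferon-induced gene, lay between -1.27 and -0.99.

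The genes higher in members include the endocytic Dnm1, the scavenger receptor Stab1 and Gas6. In the lysosome list, 4 of 9 tested genes were higher and 2 were called, with a median of -0.04, near that of all tested genes. Dnm1 had 424, 393 and 500 CPM in members of MI-DAPA, MI-NS and Sham-NS, against 180, 36 and 42.3 CPM in Ccr2 nuclei (log2 2.98 ± 0.49, adjusted p = 0.0011). Stab1, a scavenger receptor of resident macrophages, had 4047, 3086 and 2984 CPM in members against 270, 1820 and 1225 CPM in Ccr2 nuclei (log2 1.43 ± 0.28, adjusted p = 0.0042). Gas6 had 1041, 900 and 609 CPM in members against 449, 324 and 211 CPM in Ccr2 nuclei (log2 1.53 ± 0.30, adjusted p = 0.0042). Dnm1, Stab1 and Gas6 are called genes too, so the gap between their groups adds nothing to the test. Several others had 0 UMIs in the 17 Ccr2 nuclei of MI-DAPA, where the counts are smallest: Atp6v0a1, a proton pump subunit, Ctsb, the lysosomal protease cathepsin B, Cbr2, a carbonyl reductase common in resident macrophages, and B2m, the light chain of class I molecules. Their log2 fold changes were 2.12, 1.58, 1.82 and 1.63. Plekhg5 and Stard8, regulators of small GTPases, Ppp1r9a, an actin-binding protein, Psd3, an ARF6 exchange factor, and Ddx60, an antiviral helicase, completed the 12 largest, between 1.37 and 2.08.

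**Figure D3:**
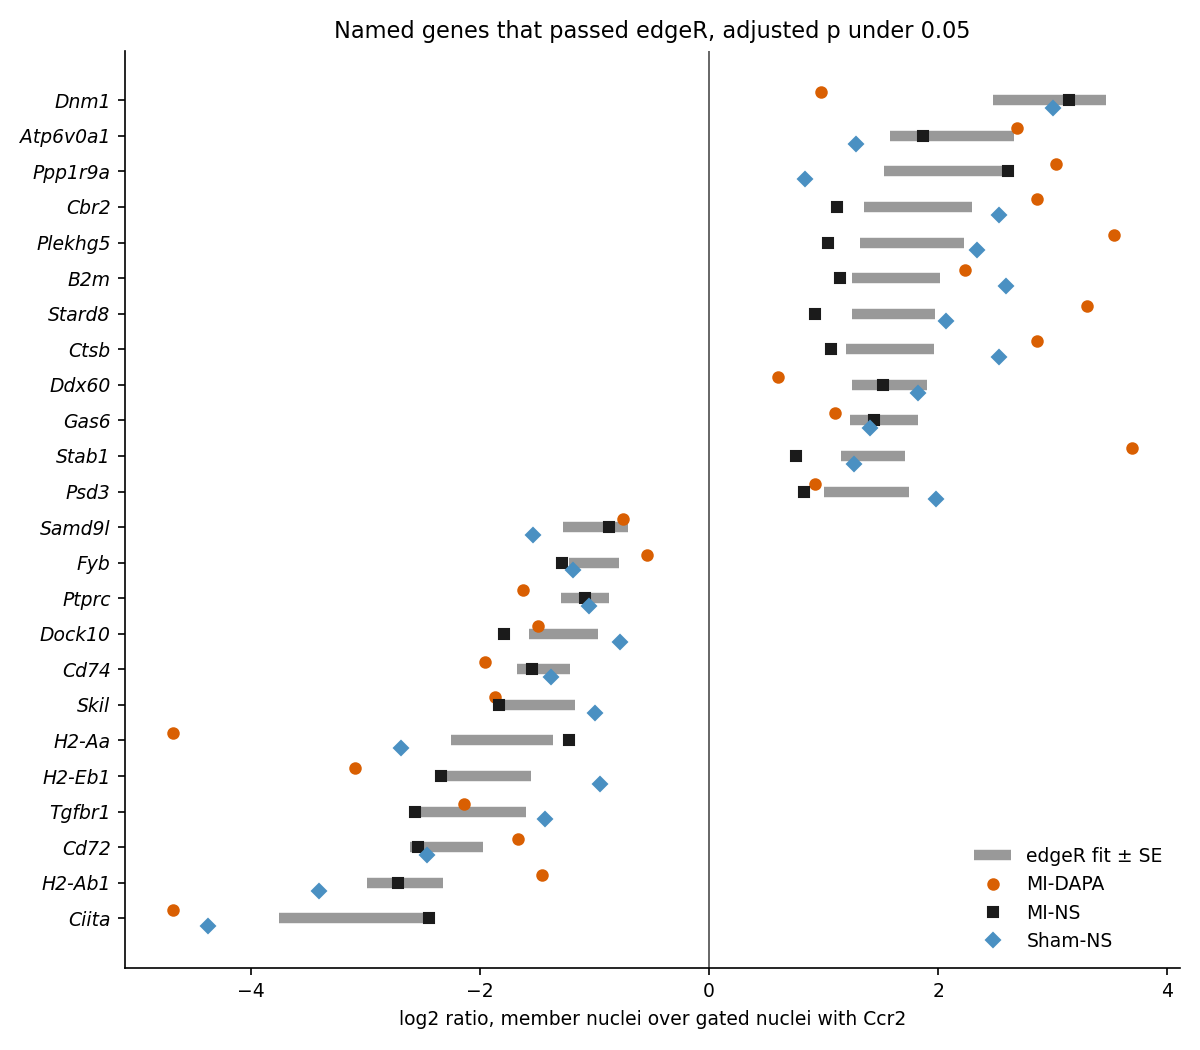
Log2 ratio of CPM in member nuclei over Ccr2 nuclei for the 24 named genes called by edgeR, with 1 point per library and grey bars for the fitted log2 fold change ± SE; with 0 UMIs on one side a point depends on the 0.5 UMI added. All points of a gene lie on the same side of 0; H2-Ab1, Ciita and Cd74 are on the lower side in members, and Dnm1, Gas6 and Stab1 on the higher side.

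**Figure D4:**
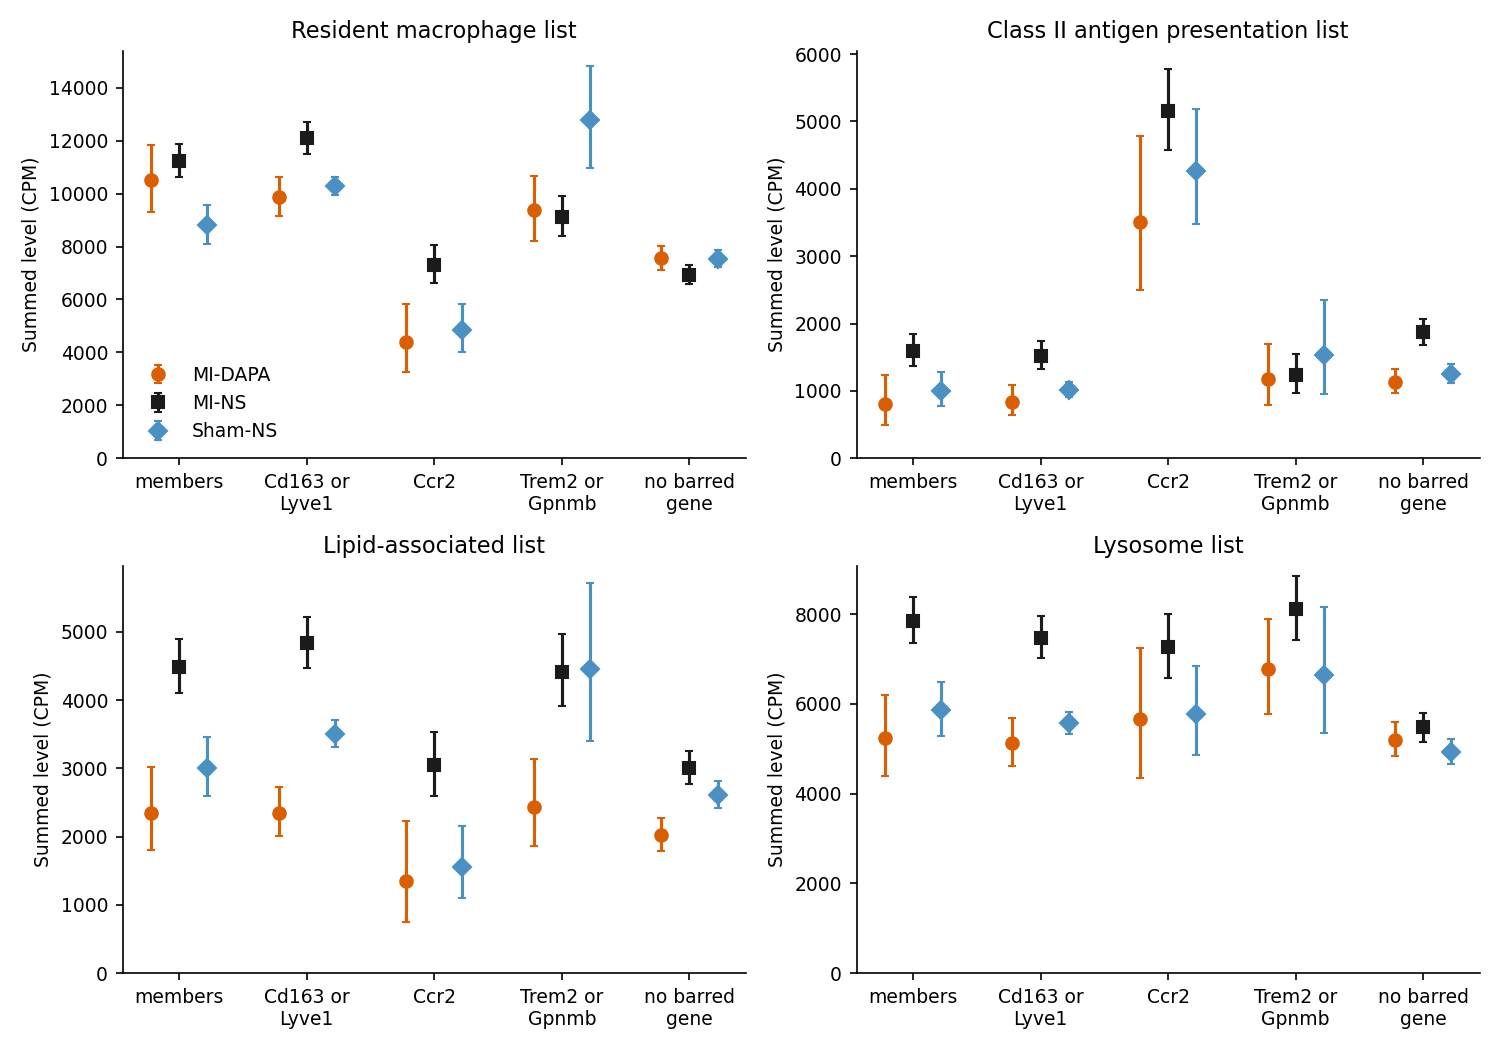
Summed CPM of gene lists, without the genes of the rule, in member nuclei and in the other kinds of gated macrophage nuclei, by library, with 95% exact Poisson intervals; the group at the right has no barred gene and under 2 UMIs of the member genes. The class II antigen presentation list is at 809 to 1591 CPM in members and 3506 to 5153 CPM in Ccr2 nuclei, and the resident macrophage list at 8811 to 11250 CPM in members and 4404 to 7315 CPM in Ccr2 nuclei.

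Between MI-NS and Sham-NS, member nuclei of MI-NS had more transcripts of resident macrophage, lectin, lysosomal and complement genes, among other lists. They had fewer of most measurable genes of the circadian clock. Genes with 20 or more UMIs in the pair of libraries were taken as measurable, and those 2-fold apart were counted. Of 1895 measurable genes, 185 (9.76%) were at least 2-fold higher in MI-NS and 167 (8.81%) at least 2-fold lower, with a median log2 ratio of -0.02. In the resident macrophage list 18 of 19 measurable genes were higher and 4 passed 2-fold, and the median log2 ratio was 0.55. The C-type lectin and sialic acid receptors list had 6 of 6 higher, 3 at least 2-fold, with a median of 1.06. Its sum was 1923 CPM in MI-NS and 906 CPM in Sham-NS members, a log2 ratio of 1.08 (0.66 to 1.53), while the log2 ratio was 0.26 in the other gated nuclei and 1.22 in nuclei without a UMI of the 6 macrophage genes. The resident macrophage sum was also higher in MI-NS members, by log2 0.35 (0.21 to 0.50), where the other gated nuclei gave -0.04 and nuclei without macrophage UMIs 0.85. The lysosome list had 10 of 16 measurable genes higher, 5 at least 2-fold, and its sum differed by log2 0.42 (0.25 to 0.60), against 0.31 in the other gated nuclei and 0.40 in nuclei without macrophage UMIs. The complement and phagocytosis list had 9 of 13 higher, 4 at least 2-fold, and its sum differed by log2 0.31 (0.12 to 0.51), against 0.16 and 0.58. The direction was thus also present in nuclei without macrophage UMIs for these 4 lists, at much lower levels (the resident macrophage sum was 1064 CPM in MI-NS and 591 CPM in Sham-NS there). The part of free RNA was not tested, nor was any difference between the ratios. The rule also admitted members by different genes: Clec10a was detected in 68.9% of MI-NS and 38.1% of Sham-NS members. Members with Clec10a had higher resident macrophage sums, as given at the end. Mgl2, the near-copy of Clec10a, is in the resident macrophage and the lectin lists. The part of this mix in the ratios was not tested.

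Single genes of several lists separated beyond counting error. Zeb2, a transcription factor that maintains macrophage identity, had 2596 CPM in MI-NS members and 859 CPM in Sham-NS members, log2 1.58 (1.18 to 2.04). Ctsc, cathepsin C, a lysosomal protease, had 1180 and 422 CPM in MI-NS and Sham-NS, log2 1.46 (0.88 to 2.14). Cp, ceruloplasmin, a ferroxidase that helps export iron, had 525 and 203 CPM in MI-NS and Sham-NS, log2 1.33. All of these were detected in at least 36 MI-NS members. In the iron and haem handling list, 7 of 8 measurable genes were higher in MI-NS, and its sum was 2378 CPM there and 1578 CPM in Sham-NS. Member sums were also higher in MI-NS for class II antigen presentation, log2 0.66 (0.25 to 1.10), and for the lipid-associated list, 0.58 (0.34 to 0.83). The macrophage transcription factors list gave 0.52 (0.35 to 0.70). The other gated nuclei gave 0.75, 0.27 and 0.25 for these lists in that order, and nuclei without macrophage UMIs 1.61, 0.21 and 0.46. Apoe, the apolipoprotein that carries cholesterol out of macrophages, had 2684 CPM in MI-NS and 1875 CPM in Sham-NS, log2 0.51 (0.21 to 0.83). In the other gated nuclei the log2 ratios were 0.82 for Zeb2, 0.91 for Ctsc, 0.07 for Cp and 0.19 for Apoe.

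Some of the widest ratios came from genes at or near 0 in Sham-NS. Ccl8, a chemokine of alternatively activated macrophages, had 20 UMIs in 15 MI-NS members and 0 UMIs in Sham-NS members. With the 0 read as the floor of 3 counts this is 3.73-fold higher, and the counting interval starts lower, at log2 1.47. The alternative activation list, which does not hold Ccl8, went the other way. Its sum was 1460 CPM in MI-NS and 2125 CPM in Sham-NS members, log2 -0.54 (-0.88 to -0.20). Of its 4 measurable genes, 2 were higher and 2 lower in MI-NS. C6, a part of the complement membrane attack complex, had 20 UMIs in 13 MI-NS members and 0 in Sham-NS, with the same fold and interval limit as Ccl8. In the other gated nuclei Ccl8 stood at 63.6 CPM in MI-NS and 4.6 CPM in Sham-NS, and C6 at 81.2 and 3.07 CPM, so neither was confined to members. Pfn1, the actin-binding profilin, counted 23 UMIs in MI-NS members against 1 in Sham-NS, Slfn4, a myeloid Schlafen gene, 20 against 1, and Ly86, a partner of the RP105 receptor, 19 against 1. Fn1, fibronectin, counted 24 against 1, but was at 556 CPM in MI-NS and 35.2 CPM in Sham-NS nuclei without macrophage UMIs. The adipocyte-type genes Car3 (carbonic anhydrase 3) and Plin1 (a lipid droplet coat protein) had 43 and 23 UMIs in only 6 MI-NS nuclei each and 0 in Sham-NS. For Fn1, Car3 and Plin1, and for the fibroblast list with 6 of 10 measurable genes at least 2-fold higher in MI-NS, the part of RNA from other cells was not tested.

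The lower side in MI-NS was led by clock genes, transcription factors and repressors of the daily rhythm. In the clock list 5 of 6 measurable genes were at least 2-fold lower, and 1, Clock itself, was at least 2-fold higher. Per2 had 1 UMI in MI-NS and 22 UMIs in Sham-NS members. Tef had 69.9 CPM in MI-NS against 500 CPM in Sham-NS, Per3 78.7 against 437 CPM, and Dbp 69.9 against 359 CPM. The clock list sum was 578 CPM in MI-DAPA, 874 CPM in MI-NS and 2453 CPM in Sham-NS members, and MI-NS over Sham-NS was log2 -1.49 in members, -1.56 in the other gated nuclei and -1.28 in nuclei without macrophage UMIs. The direction was thus common to macrophage and other nuclei of the library. Other low genes were Abca8a, a lipid transporter of fibroblasts, Arid2, a chromatin remodeller subunit, Slc26a10, of an anion transporter family, and Hdac9, a histone deacetylase, at log2 -2.33 to -2.22. The interferon response list was split, with 7 of 15 measurable genes higher and 8 lower, while its sum was lower by log2 -0.36 in members and -0.24 in the other gated nuclei and higher by 0.26 in nuclei without macrophage UMIs. Of its genes 3 were at least 2-fold lower, among them Rnf213, a large ubiquitin ligase, at log2 -1.16 and Ifi207, of the interferon-inducible p200 family, at -1.03. The mitochondrial list, 11 measurable genes, was lower in MI-NS throughout, with a median of -1.54, as the mitochondrial shares above show.

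Between MI-DAPA and MI-NS, members of MI-DAPA had fewer transcripts of class II, lysosomal and interferon genes and of Apoe. The comparison rests on 37 MI-DAPA nuclei with 25948 UMIs. The mitochondrial list moved with it: 11 of 11 measurable genes were higher in MI-DAPA, 9 at least 2-fold, with a median of 1.16, and its part in the other differences was not tested. Clec10a was detected in 54.1% of MI-DAPA and 68.9% of MI-NS members, and the part of this mix was not tested either. Of 1362 measurable genes, 124 (9.1%) were at least 2-fold higher in MI-DAPA and 167 (12.3%) at least 2-fold lower, with a median log2 ratio of 0.10. With TMM factors the higher share of these calls was 35.1% in place of 42.6%, and with the stricter nucleus filter it was 53.6%. Of all measurable genes, 754 had a ratio above 0. The lysosome list had 9 of 13 measurable genes lower, 6 at least 2-fold, with a median of -0.65. The complement and phagocytosis list had 9 of 11 lower, 3 at least 2-fold, with a median of -0.85, although its sum, whose best-counted genes include Gas6 and C1qb, differed by only -0.14 (-0.40 to 0.11).

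Several list sums were lower in MI-DAPA than in MI-NS beyond counting error. Class II antigen presentation stood at 809 CPM in MI-DAPA and 1591 CPM in MI-NS members, log2 -0.95 (-1.70 to -0.32). The lipid-associated list, genes of cholesterol and lipid-droplet handling, stood at 2351 CPM in MI-DAPA and 4484 CPM in MI-NS, log2 -0.92 (-1.34 to -0.55). Apoe made up most of that difference (1041 CPM in MI-DAPA and 2684 CPM in MI-NS): of the 4 measurable genes 1 was at least 2-fold lower, and Abca1, a cholesterol exporter, had a log2 ratio of 0.40 (-0.50 to 1.17). The lysosome list gave log2 -0.58 (-0.86 to -0.32) and the interferon response list -0.57 (-0.94 to -0.24). The other gated nuclei gave -0.84, -0.82, -0.31 and -0.36 for these 4 lists in that order, and nuclei without macrophage UMIs gave -1.88, -0.58, -0.54 and -0.78. The direction was thus common to the nuclei of these libraries and not confined to macrophages, and the part of free RNA was not tested. The resident macrophage list did not separate, at 10520 CPM in MI-DAPA and 11250 CPM in MI-NS (-0.09, -0.29 to 0.09).

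Apoe, Ctsc and Cd74 were lower in MI-DAPA beyond counting error. Apoe had 27 UMIs or 1041 CPM in MI-DAPA members against 307 UMIs or 2684 CPM in MI-NS members, log2 -1.34 (-1.99 to -0.80). Ctsc had 424 CPM in MI-DAPA against 1180 CPM in MI-NS, log2 -1.42 (-2.51 to -0.59), and Cd74 270 against 708 CPM, log2 -1.30 (-2.75 to -0.28). Zeb2 had 1272 CPM in MI-DAPA against 2596 CPM in MI-NS. In the other gated nuclei the log2 ratios were -1.45 for Apoe, -0.72 for Ctsc, -0.87 for Cd74 and -0.84 for Zeb2, so these falls were not confined to members. The MI-DAPA level of Ctsc was close to the 422 CPM of Sham-NS, while Apoe was below its Sham-NS level of 1875 CPM.

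For Psap and Tcirg1, the other best-counted lysosomal genes, the interval of MI-DAPA over MI-NS included 0. Psap, the precursor of the saposins that help break down sphingolipids, had 578 CPM in MI-DAPA, 935 CPM in MI-NS and 609 CPM in Sham-NS members, with a log2 ratio of -0.65 (-1.58 to 0.09) for MI-DAPA over MI-NS. Tcirg1, a subunit of the acidifying proton pump, had 1310 CPM in MI-DAPA, 1145 CPM in MI-NS and 1422 CPM in Sham-NS. Its log2 ratio was 0.21 (-0.39 to 0.75) for MI-DAPA over MI-NS and -0.31 (-0.71 to 0.09) for MI-NS over Sham-NS.

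**Figure D5:**
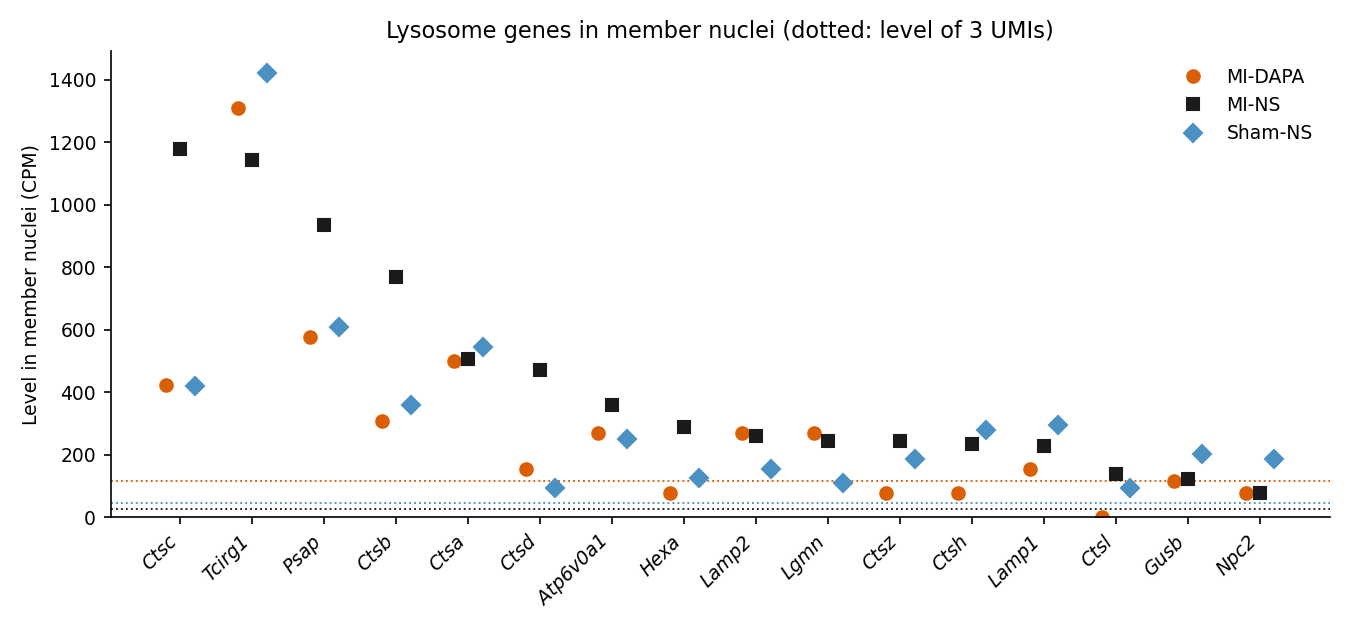
Level (CPM) of each measurable lysosome gene in member nuclei, 1 point per library, with dotted lines at the level of 3 UMIs in each library. Ctsc is at 424 CPM in MI-DAPA, 1180 CPM in MI-NS and 422 CPM in Sham-NS, and several MI-DAPA points lie near or under their line at 115.6 CPM.

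A further group had 0 UMIs in MI-DAPA members, and its folds are given with the 0 read as the floor of 3 counts. The counting intervals reach smaller folds, so their upper limits are given too. Ltbp3, which tethers latent TGF-beta to the matrix, had 40 UMIs in 24 MI-NS nuclei. It was 3.02-fold lower in MI-DAPA at that floor, with an upper limit of log2 -1.23. Ikbke, a kinase that induces interferon and NF-kB responses, had 31 UMIs in 22 MI-NS nuclei and was 2.34-fold lower (upper limit log2 -0.84). Actr3, an actin-nucleating subunit, and Tapbp, tapasin, which loads peptides on class I molecules, had 27 UMIs each in MI-NS. Both were 2.04-fold lower (upper limit log2 -0.63). Ednrb, an endothelin receptor, had 25 UMIs in MI-NS and was 1.89-fold lower (upper limit log2 -0.51). Car3, Plin4, another lipid droplet coat protein, and Fn1 completed these 8, with the low nucleus numbers or wide expression given for such genes above. Ltbp3 was also widely expressed, at 328 CPM in MI-DAPA and 624 CPM in MI-NS nuclei without macrophage UMIs. MI-DAPA over MI-NS in the other gated nuclei was log2 -0.82 for Ltbp3, -1.20 for Ikbke and -0.44 for Actr3. It was -1.285 for Tapbp and -0.22 for Ednrb there.

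Most of the genes named as higher in MI-DAPA had small counts. Stab1, the scavenger receptor, had 4047 CPM in MI-DAPA and 3086 CPM in MI-NS, log2 0.40 (0.06 to 0.71). Cxcl16, a scavenger receptor and membrane chemokine, had 13 UMIs in 6 MI-DAPA nuclei and 12 UMIs in 7 MI-NS nuclei, or 501 and 105 CPM, log2 2.25 (1.01 to 3.52). Mphosph8, a subunit of a heterochromatin silencing complex, had 14 and 9 UMIs in MI-DAPA and MI-NS, log2 2.75. Akap8, a nuclear scaffold, Clcn4, a chloride-proton exchanger, Pip4k2a, a phosphoinositide kinase, Agtpbp1, a deglutamylase, Ktn1, a kinesin-binding protein, and Fbn1, fibrillin 1, lay between log2 1.81 and 2.22. Nlrp3, the inflammasome sensor that the study's topic touches, had 0, 4 and 3 UMIs in MI-DAPA, MI-NS and Sham-NS members, too few for a comparison.

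MI-DAPA and Sham-NS members were compared on 748 measurable genes, of which 41 (5.48%) were at least 2-fold higher in MI-DAPA and 66 (8.82%) at least 2-fold lower, with a median of 0.08. The higher share of these calls, 38.3%, was 24.1% with TMM factors, which moved the median by 0.11, and 52.6% with the rule lacking C4b and Pltp. The interferon response sum was 3045 CPM in MI-DAPA and 5827 CPM in Sham-NS members, log2 -0.93 (-1.31 to -0.58). The iron and haem handling sum was higher, at 2351 CPM in MI-DAPA and 1578 CPM in Sham-NS. The resident macrophage, class II and lysosome sums differed by log2 0.26, -0.28 and -0.16. This comparison shares its libraries with both others.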

How the data were processed

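Per the labels' protocols, nuclei were freed by detergent lysis, spun onto OptiPrep and sequenced as Chromium v3.1 3' libraries. The authors deposited matrices of UMI counts made with Cell Ranger 6.0.1, per the file headers; the submitters' processing notes name mm10 and Seurat, and the counting of intronic reads is not given in the sources used here. The members and the 20 programme and 12 other-cell gene lists (405 genes, 2 not in the files) were chosen with earlier results of these data known. UMIs were summed per library over nuclei. Ratios are on the log2 scale, after 0.5 UMI was added per sum. Intervals are exact: Clopper-Pearson for shares, Poisson for levels, conditional binomial for ratios; they cover counting error only. List sums leave out rule genes. Scrublet in scanpy 1.11.5 called 2, 1 and 0 doublets in MI-DAPA, MI-NS and Sham-NS, which means that it did not work, so none was removed and the highest 10% of scores were left out as an alternative. edgeR 4.0.16 (R 4.3.3) tested per-library sums with TMM factors, filterByExpr and a library block, with Benjamini-Hochberg adjustment over all genes tested; DESeq2 1.42.0 was an alternative. The 3 libraries differ in condition, so that test measures the spread between them and not between animals. The procedure was tested on simulated data. Named genes were the rule genes, the 12 highest and 12 lowest called genes with the same sign in all libraries, the 8 highest and 8 lowest ratios with UMIs in at least 5 nuclei, and the 3 best-counted genes of each list; Ctsb, Lilrb4a and the genes of the Ccr2 comparison were chosen after their values were seen. Some genes that met this rule are not reported here.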

Additional observations from a re-analysis of the deposited data

How the results depend on the processing

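No paired analysis was possible because each group is 1 library. Differences between groups have no replicates, and depth limits them further: MI-DAPA members hold 25948 UMIs. The log2 share ratio of MI-NS over Sham-NS among kept nuclei (1.19) was 2.11 with at least 3 member-gene UMIs and 0.39 when thinned to 1000 UMIs; among gated nuclei (1.38) these were 2.31 and 0.53. MI-DAPA over MI-NS among kept nuclei (-1.33) was -2.05 with the stricter filter of 500 genes and 5% mitochondrial UMIs, -2.48 with at least 3 UMIs, -1.91 without C4b and Pltp and -2.36 thinned; among gated nuclei (-0.95) it was -2.10 with at least 3 UMIs and -1.53 without C4b and Pltp. MI-DAPA over Sham-NS among kept nuclei (-0.14) was -0.85 with the stricter filter and -1.97 thinned (-3.97 to -0.41), and among gated nuclei (0.44) it was -0.68 thinned. Against other gated nuclei, edgeR's 1 call was 0 with DESeq2, 4 with library totals alone, 8 without a filter, 0 without the library block, 0 to 5 with a library left out, 0 with at least 1000 UMIs, 12 against others without barred genes, 2 without C4b and Pltp (Macf1 and Dst, both lower, with Dnm1 at an adjusted p of 0.304 by edgeR), 0 with the stricter filter and 0 without the highest doublet scores. Against Ccr2 nuclei, the 32 calls were 4 with DESeq2, 20 with library totals, 18 without a filter, 4 without the block, 0 to 9 with a library left out, 14 with the stricter filter, 17 without the highest doublet scores and 3 with at least 1000 UMIs. Genes at least 2-fold apart between MI-NS and Sham-NS (352) numbered 1040 and 48 at 10 and 50 UMIs, and 181 without C4b and Pltp; between MI-DAPA and MI-NS (291) they numbered 971, 51 and 169; between MI-DAPA and Sham-NS (107) they numbered 477, 12 and 38, and 60 with the stricter filter. At 50 UMIs 41.7% of the MI-NS calls against Sham-NS were higher, in place of 52.6%. The cause was not tested, beyond fewer UMIs or nuclei where an alternative leaves some out.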

Other observations

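Some lists that enter no comparison above were read in member nuclei as values. The cell cycle list, 25 genes, stood at 540 CPM in MI-DAPA, 612 CPM in MI-NS and 516 CPM in Sham-NS members, against 1111, 724 and 781 CPM in the other gated nuclei. Members over other gated nuclei gave log2 -0.99 (-1.93 to -0.27) for MI-DAPA. The Sham-NS ratio was -0.58 (-1.15 to -0.09), and that of MI-NS, -0.23 (-0.64 to 0.13), had an interval that spans 0. Only 4 genes of the list were tested by edgeR, none with an unadjusted p under 0.05. How many other lists separate in this way was not counted. The inflammatory cytokines and chemokines list stood at 1310, 1066 and 812 CPM in members of MI-DAPA, MI-NS and Sham-NS, against 1288, 1077 and 939 CPM in the other gated nuclei. Members with Clec10a had a higher resident macrophage sum than members without it in 3 of 3 libraries, at 12170 against 8990 CPM in MI-DAPA, 13000 against 8281 CPM in MI-NS and 10400 against 8010 CPM in Sham-NS. These splits use a gene of the rule, and no test was made of them.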
